A study of Mus musculus with 2 samples.

Results

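The Wnt pathway genes described here are 45 named genes: ligands and the proteins that secrete them, Frizzled and Lrp receptors, secreted antagonists, the R-spondin axis, cytoplasmic relay proteins and Tcf/Lef transcription factors. They were found by symbol, as the probe sets that the array's annotation assigns to exactly 1 gene, and 44 of the 45 had such a probe set, out of 18193 genes in all. Tcf7 had none and was not analysed here. The 44 genes were covered by 103 probe sets. RNA came from whole liver at E14.5, with 1 array for a wild-type sample and 1 for a conditional knockout labelled Prox1 f/f;Foxa3Cre, both labelled NMRI/C57Bl6. In the latter, Cre recombinase driven by Foxa3, a gene of gut and liver endoderm, acts on a floxed Prox1, the gene of a homeodomain factor found in liver progenitors. Cells of other origin in the same liver (blood, endothelium, mesenchyme) are not expected targets of this Cre, and sources used here do not give the number of embryos behind each RNA sample. With 1 array per genotype there is no replicate, no error between animals and no test, so each difference below is between these 2 samples.

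Wnt proteins are secreted, lipid-modified ligands that bind a Frizzled receptor together with Lrp5 or Lrp6. Binding recruits Dishevelled and disables the complex of Axin, Apc and Gsk3 that marks β-catenin for destruction, and the β-catenin that accumulates acts in the nucleus with Tcf/Lef factors. R-spondins bind Lgr receptors and draw off Rnf43 and Znrf3, ubiquitin ligases that remove Frizzled from the cell surface, and several targets of the pathway (Axin2, Nkd1, Lgr5, Rnf43, Znrf3) feed back on it. In the liver the pathway is known for hepatoblast growth before birth and for the gene program of hepatocytes around the central vein in the adult.

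Receptor and antagonist genes of the pathway mostly read higher on the knockout array, while Tcf7l1 and Tcf7l2, the transcription factor genes that could be measured, read lower. Signals are MAS5 intensities on a linear scale, as deposited. A floor of 112.6 signal units, the higher of the array medians, was set, and a gene counted as measured where the brightest of its probe sets, by mean log2 signal, was above the floor on at least 1 array. Of 44 genes, 31 were measured, 25 of them on both arrays and 6 on the knockout array only. Among all 11397 measured genes, 812 passed the floor in the knockout alone and 364 in wild type alone. The array median was 101.1 in wild type and 112.6 in the knockout, so by construction fewer probe sets pass this floor in wild type. Of the measured members, Fzd1, Fzd2 and Rspo3 were higher in the knockout by 2-fold or more, and 0 were lower by that much. For 5 more (Wnt2, Wnt11, Fzd3, Sfrp2 and Frzb), below the floor in wild type, only a lower bound under 2-fold is known, so their full difference may be larger. These 3 were 9.68% of the measured members, against 3.27% of 11397 measured genes that were higher by this mark and 2.13% that were lower. At a 1.5-fold mark 10 members were higher (32.3%, against 9.87% of all measured genes) and 2 were lower (6.45%, against 5.21%).

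The 6 members seen on the knockout array only had to differ in that direction, so the members measured on both arrays are given separately. Of these 25, 2 were at least 2-fold higher (8.0%, against 2.61% of 10221 genes measured on both arrays) and 0 were at least 2-fold lower (1.85% of all such genes). Their log2 difference, knockout minus wild type, was above 0 for 18 (72.0%, against 52.1%) and below 0 for 7, with a median of 0.28 against 0.01 over all genes measured on both arrays. Over all 31 measured members, with bounds included, 24 were above 0 (against 53.8% of all measured genes) and the median was 0.35 against 0.03. All members were of low or middle signal, 2159 at most, and dim genes leaned towards the knockout array. Among genes with a mean signal below 250 the median log2 difference was 0.28 for 9 members and 0.12 for all 1633 genes. Between 250 and 1000 it was 0.32 for 13 members and 0.04 for all 4388, and between 1000 and 5000 it was 0.14 for 3 members and -0.03 for all 3392.

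**Figure D1:**
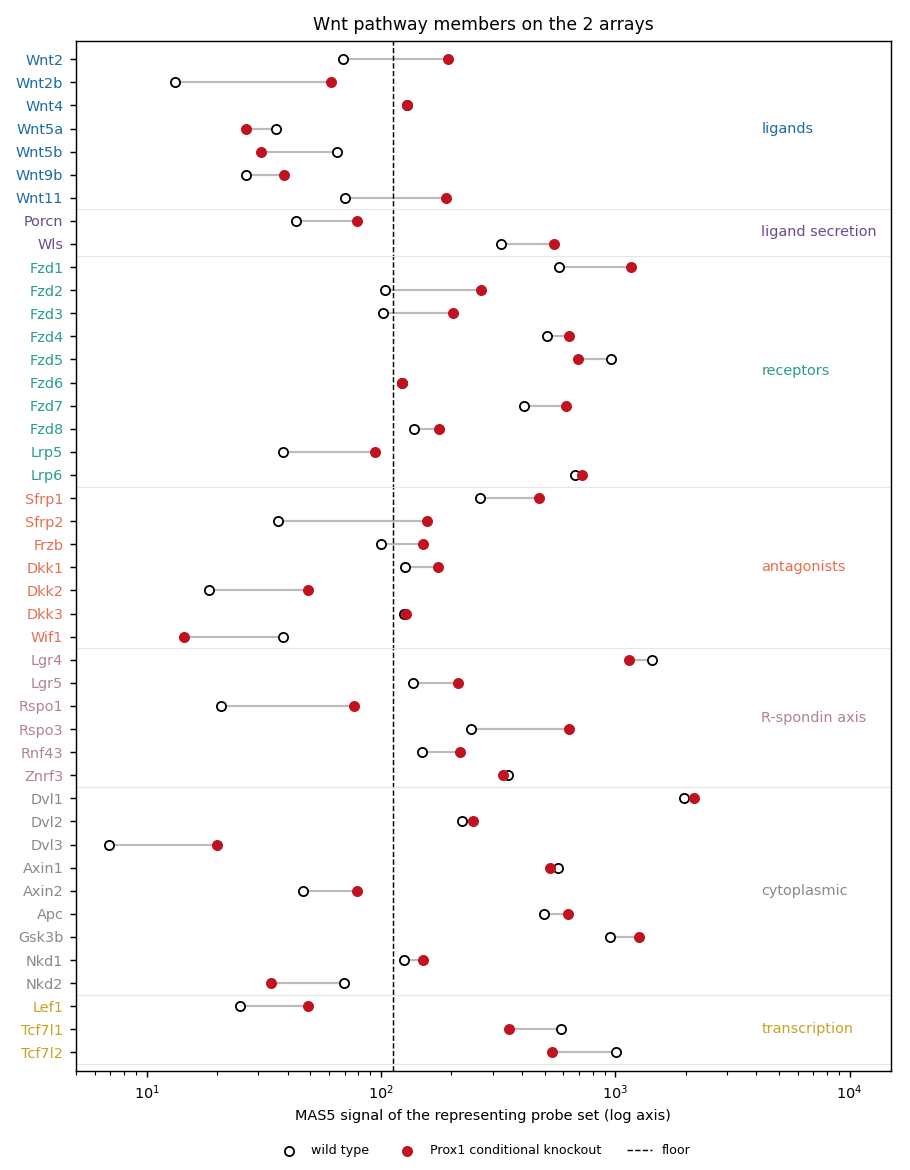
MAS5 signal (log axis) of the 44 members on the wild-type array (open circles) and the Prox1 conditional knockout array (filled circles), grouped by role, with the floor of 112.6 as a dashed line. The knockout circle lies to the right for most receptors and antagonists, and to the left for Tcf7l1 and Tcf7l2.

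Probe sets of 1 gene on the same arrays give the only internal measure of precision. Among 4593 genes with more than 1 probe set measured on both arrays, the range of the log2 difference between probe sets of a gene had a median of 0.31, and 10% of genes had a range over 0.77. For 11 members the median range was 0.37 and the widest 0.98. Over all 59 measured probe sets of members, 4 were at least 2-fold higher (6.78%, against 2.69% of 20409 measured probe sets). At least 2-fold lower were 0 (1.76% of all). Above 0 were 44 and below 0 were 15, and the share of all probe sets above 0 was not counted. Of the 59, 43 were above the floor on both arrays, 15 in the knockout only and 1 in wild type only. Probe sets above it on 1 array only had a fixed direction, and of the 4, those of Fzd2 and Sfrp1 were such bounds. The remaining 44 probe sets lay below the floor on both arrays and have no ordered difference.

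**Figure D2:**
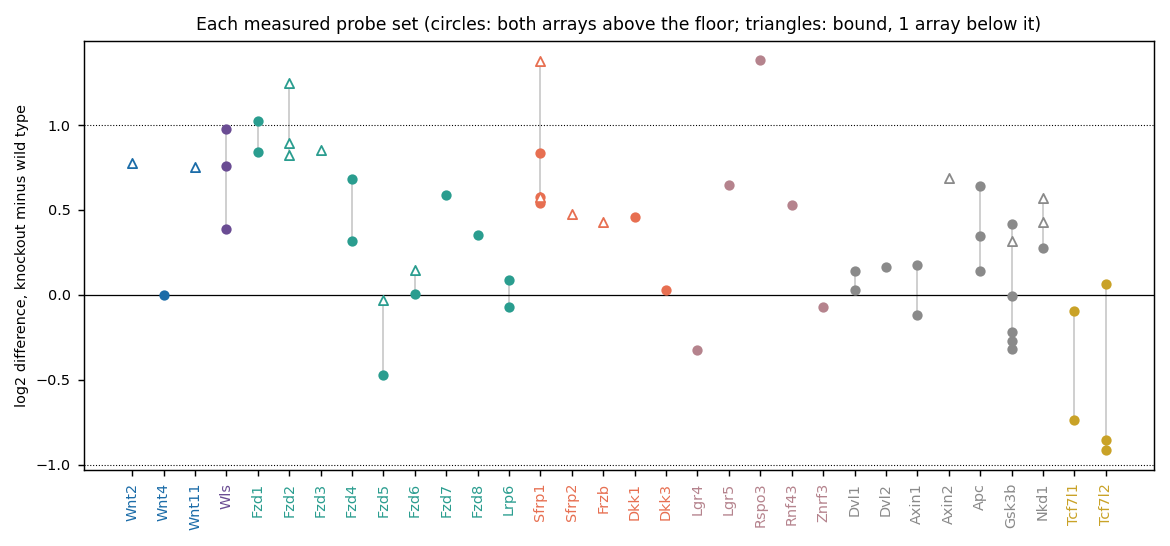
Log2 difference (knockout minus wild type) of each measured probe set of each member; circles were above the floor on both arrays, triangles on 1 array only and so are bounds, and dotted lines mark 2-fold. All measured probe sets of Wls, Fzd1, Fzd2, Sfrp1 and Nkd1 lie above 0, while those of Gsk3b and Tcf7l2 lie on both sides. Those of Fzd2, and some of Sfrp1 and Nkd1, are above the floor in the knockout only and could not lie below 0.

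Promoter sequence was read for 30 of the 45 members, in 39 promoters of the RefSeq promoter table (GRCm38.p6), as the 250 bases before each start. Member promoters on 1 chromosome were left out by rule, a rule not applied to the comparison over all promoters. These windows were GC-rich, with a median of 63.6% GC and a range from 40.8% to 85.2%, beside a median of 52.4% over all 32851 promoters of the table. The core that Tcf/Lef factors bind, taken as CTTTGAA or CTTTGAT on either strand, was present in 3 of the 39 windows (7.69%), against 7.48% of all 32851. These belonged to Dkk1, to 1 start of Wnt11 and to 1 of the 3 starts of Wnt5b, at 71 bases before that Wnt5b start. Another start of Wnt11 had no match. Below are the matching windows of Wnt11 and Dkk1, the measured members with a match. Windows of Fzd1, a 2-fold higher receptor, and Tcf7l1, a lower Tcf gene, follow and have none. Wnt11 lies at chr7:98834862-98835083 on the + strand, where 222 of the 250 bases lie outside the annotated span of the gene and are printed, and its match starts 51 bases before the start used in the table and reads on the opposite strand. Dkk1 lies at chr19:30549497-30549746 on the - strand, with its match 117 bases before the start. Fzd1 lies at chr5:4758217-4758466 and Tcf7l1 at chr6:72789046-72789295, both on the - strand. Sequences run 5′ to 3′ along the gene, and capitals mark the match.
Wnt11: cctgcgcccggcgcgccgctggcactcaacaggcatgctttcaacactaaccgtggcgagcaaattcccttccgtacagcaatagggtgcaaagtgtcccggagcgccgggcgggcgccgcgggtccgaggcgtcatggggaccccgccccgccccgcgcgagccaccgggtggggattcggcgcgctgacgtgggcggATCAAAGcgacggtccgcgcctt
Dkk1: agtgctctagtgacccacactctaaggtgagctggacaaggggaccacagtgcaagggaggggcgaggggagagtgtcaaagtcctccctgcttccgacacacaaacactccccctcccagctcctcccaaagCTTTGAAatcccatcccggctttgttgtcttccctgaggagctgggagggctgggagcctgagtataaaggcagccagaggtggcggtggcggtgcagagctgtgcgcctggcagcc
Fzd1: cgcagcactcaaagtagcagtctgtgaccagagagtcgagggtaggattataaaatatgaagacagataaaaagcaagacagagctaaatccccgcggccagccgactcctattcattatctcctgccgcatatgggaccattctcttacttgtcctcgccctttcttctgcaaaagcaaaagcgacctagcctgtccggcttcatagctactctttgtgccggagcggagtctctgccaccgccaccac
Tcf7l1: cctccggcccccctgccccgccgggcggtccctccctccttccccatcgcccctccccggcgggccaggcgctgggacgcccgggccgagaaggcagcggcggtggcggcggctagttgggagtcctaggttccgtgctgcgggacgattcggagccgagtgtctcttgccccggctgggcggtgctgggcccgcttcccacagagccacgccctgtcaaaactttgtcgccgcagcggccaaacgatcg
The Tcf7l1 window is 73.6% GC and the Fzd1 window 51.2%. A match is a stretch of letters and not a measured binding site, and its absence here says nothing about sequence outside these windows.

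Of the Wnt ligands, Wnt2 and Wnt11 were seen on the knockout array only. Wnt2, a canonical ligand of liver endothelium, read 69.1 in wild-type and 193.1 in knockout liver, at least 1.72-fold higher. Wnt11, a ligand best known for β-catenin-independent signalling, read 70.2 and 189.5, at least 1.68-fold higher. Both were below the floor in wild type, and each rests on a single probe set. Wnt4, a ligand of mesenchyme and kidney epithelium, read 129.5 and 129.4, equal on the arrays and close to the floor. Wnt2b (13.2 and 61.4), Wnt5a (35.6 and 26.5), Wnt5b (64.8 and 30.9) and Wnt9b (26.6 and 38.6) were below the floor on both arrays, so no difference is given for them. Wnt2, Wnt9b and Rspo3 are the ligands known from central vein endothelium, and of these Wnt9b was not measurable.

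Wls, the carrier that brings lipid-modified Wnts to the cell surface, read 324.2 in wild-type and 547.8 in knockout liver, 1.69-fold higher. Its other measured probe sets read 299.5 and 588.3, and 148.1 and 193.4, so all 3 lay in the same direction, with log2 differences from 0.39 to 0.97. Porcn, the acyltransferase that attaches the lipid, read 43.6 and 79.3, below the floor on both arrays. Porcn is X-linked, and the arrays differed in sex-linked genes: Xist read 11467 in wild-type and 365.7 in knockout liver, and the Y-linked Eif2s3y 0.87 and 1972. The part of this in the members' values was not tested.

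The Frizzled receptors contained the most members past the 2-fold mark. Fzd1 read 573.2 in wild-type and 1164 in knockout liver, 2.03-fold higher, and its second probe set read 137.5 and 245.9, a log2 difference of 0.84. Fzd2, a receptor widespread in mesenchyme, read 104.0 and 267.5, at least 2.38-fold higher. The other Fzd2 probe sets read 99.1 and 199.3, and 85.3 and 209.0. All 3 were below the floor in wild type and above it in the knockout, with bounds of 0.82, 0.89 and 1.25 on the log2 scale. With the median over probe sets in place of the brightest, Fzd1 was at 0.93 on the log2 scale, under 2-fold, and the bound for Fzd2 was 0.89.

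Fzd3 read 102.4 and 203.5, at least 1.81-fold higher on 1 of 6 probe sets, with the remaining 5 under the floor. Fzd7, a receptor of stem and progenitor cells, read 408.1 and 614.3, 1.51-fold higher. Fzd4, the receptor for Norrin as well as Wnts and abundant in endothelium, read 511.5 and 637.6, 1.25-fold higher, and 232.8 and 374.3 on its second probe set. Fzd4 and Fzd7 thus read higher in the knockout by less than 2-fold, while the size for Fzd3 has no upper limit. Fzd8 read 138.5 and 176.6, 1.27-fold higher, and Fzd6 read 122.8 and 123.1, nearly equal, with a sign that turned under rescaling.

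Fzd5 was the exception among the Frizzleds. It read 961.8 in wild-type and 693.2 in knockout liver, 1.39-fold lower, and its dimmer probe set read 114.9 and 61.8, also lower. The co-receptor Lrp6 read 676.8 and 719.1, and 237.7 and 226.2 on its other probe set, so it differed by less than 0.1 on the log2 scale and in both directions. Lrp5, its relative, stayed under the floor at 38.3 and 94.0. Of 9 measured receptors, 2 were past 2-fold, 8 were above 0 and 1 was below. Among all measured genes 3.27% were higher by 2-fold and 53.8% were above 0. Fzd2 and Fzd3 were above the floor in the knockout only, so their direction was fixed, and Fzd2 is 1 of the 2 past 2-fold. The 7 receptors measured on both arrays had a median log2 difference of 0.32, against 0.01 over all such genes.

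Of 5 measured antagonists, 3 were measured on both arrays and read higher in the knockout by less than 2-fold on their brightest probe sets, and 2 (Sfrp2 and Frzb) were above the floor in the knockout only, which fixes their direction and leaves a bound. Sfrp1, a secreted decoy with a Frizzled-like domain, was the best covered. Its probe sets read 264.9, 242.7, 176.4, 85.9 and 101.7 in wild-type and 472.0, 362.0, 256.2, 292.1 and 167.7 in knockout liver. All 5 were higher in the knockout. On the brightest Sfrp1 was 1.78-fold higher, and the log2 differences and bounds ran from 0.54 to 1.38. Sfrp2, a decoy of mesenchyme, read 36.5 and 157.0, at least 1.39-fold higher, and Frzb read 99.7 and 151.7, at least 1.35-fold. Dkk1, which blocks Lrp5 and Lrp6 and is itself a Wnt target, read 127.1 and 174.8, 1.38-fold higher. Dkk3, a relative that is not a typical Lrp blocker, read 125.8 and 128.5, and its sign turned under quantile normalization and lowess correction. Dkk2 (18.4 and 48.7) and Wif1 (38.4 and 14.4) were below the floor on both arrays. The median over the 3 antagonists measured on both arrays was 0.46.

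The R-spondin axis lay in both directions. Rspo3, the R-spondin of hepatic endothelium and mesenchyme, read 243.2 in wild-type and 633.6 in knockout liver. At 2.60-fold it had the highest log2 difference of the members measured on both arrays, 1.38, on 1 probe set; its other probe set was below the floor at 27.7 and 34.5, and as the median of probe sets Rspo3 was at 0.69. Rspo1 stayed under the floor at 20.8 and 76.5. The receptor Lgr5, a Wnt target of stem cells and pericentral hepatocytes, read 136.5 and 214.2, 1.57-fold higher, while Lgr4, the receptor more widely expressed in hepatocytes, read 1433 and 1147, 1.25-fold lower. Of the ubiquitin ligases, Rnf43 read 150.4 and 216.7, 1.44-fold higher, and Znrf3 read 348.5 and 331.5, 1.05-fold lower. Thus ligand, Lgr5 and Rnf43 were higher in the knockout and the brightest member of the axis, Lgr4, lower.

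The cytoplasmic relay and the destruction complex stayed within 1.34-fold on their representing probe sets. Dvl1, the brightest Dishevelled, read 1959 and 2159, and 726.4 and 740.9 on its other probe set; Dvl2 read 220.9 and 247.1; Dvl3 was below the floor at 6.92 and 19.9. The scaffold Axin1 read 571.9 and 526.1, and 249.9 and 282.5, so its probe sets were opposite in sign. The tumour suppressor Apc read 494.2 and 628.9, 1.27-fold higher, with all 3 measured probe sets above 0. Gsk3b, the kinase of the complex, read 947.9 and 1268 on its representing probe set, a log2 difference of 0.42. Of its 5 other probe sets 4 were lower in the knockout, down to a log2 difference of -0.32, and as the median of probe sets Gsk3b was at -0.11. No direction is therefore given for Axin1 or Gsk3b.

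The feedback inhibitors were dim. Axin2, the negative regulator most often used as a readout of β-catenin activity, had a representing probe set under the floor (46.6 and 79.4) and a second that read 18.8 in wild-type and 181.2 in knockout liver, a bound of 0.69 on the log2 scale. Nkd1, an antagonist of Dishevelled, read 125.0 and 151.6, 93.5 and 167.4, and 80.3 and 151.6 on its measured probe sets, all higher in the knockout, by 1.21-fold on the brightest. Nkd2 was below the floor at 69.6 and 33.8. Of 8 feedback genes with a probe set (Axin2, Nkd1, Nkd2, Lgr5, Rnf43, Znrf3, Lef1 and Dkk1), 5 were measured, all on both arrays. Of these, 4 were above 0 (all but Znrf3) and 0 higher by 2-fold, with a median of 0.46. Among all genes measured on both arrays 52.1% were above 0 and 2.61% higher by 2-fold, and 5 genes are too few to set apart from these shares.

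The Tcf genes were the members that read lowest against wild type. Tcf7l2, the main Tcf factor of liver, read 1010 in wild-type and 535.4 in knockout liver, 1.89-fold lower, and its second probe set read 548.4 and 302.9, a log2 difference of -0.86. The next, dimmer probe set read 148.4 and 155.3, with 0.07. Tcf7l1, a factor that often acts as a repressor in progenitors, read 584.3 and 350.6, 1.67-fold lower, but its other probe set read 388.8 and 364.5, only -0.09 on the log2 scale. The probe sets of each gene thus did not share 1 size, and as the median of probe sets the log2 differences were -0.43 for Tcf7l2 and -0.41 for Tcf7l1. The Tcf7l2 median counts as 0 its dimmest probe set, which was below the floor on both arrays (34.6 and 23.1), and this draws it towards 0. Lef1, a β-catenin partner and target, stayed under the floor at 24.9 and 48.8.

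**Figure D3:**
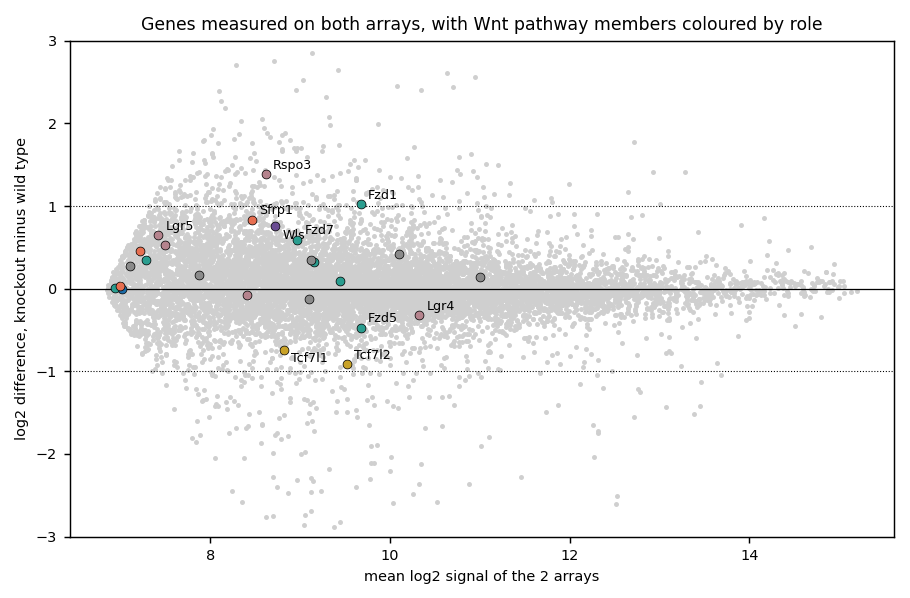
Log2 difference (knockout minus wild type) against mean log2 signal for 10221 genes measured on both arrays (grey; 7 lie outside the plotted range), with 25 members coloured by role as in the plot of signals; dotted lines mark 2-fold. Rspo3 and Fzd1 lie above the upper line, and Tcf7l2 and Tcf7l1 are the lowest members, inside the lower line.

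Other genes of the pathway, from lists that share no gene with the members, also lay mostly above 0. Of 93 listed, 91 had a probe set and 60 were measured. Past 2-fold were 7 on the knockout side (11.7%, against 3.27% of all measured genes) and 0 on the wild-type side (2.13%). Above 0 were 45 (75%, against 53.8% of all measured genes), with a median of 0.20. Of the 60, 7 were above the floor in the knockout only, which fixed their direction, and Aldh1a1 and Cldn2 of these were past 2-fold. The 53 measured on both arrays had a median of 0.17, against 0.01 over all such genes. Among ligands and antagonists Wnt7a read 118.8 and 276.1, 2.32-fold higher, the R-spondin Rspo2 35.5 and 214.0, at least 1.90-fold higher, and Notum, a secreted Wnt deacylase, 202.6 and 121.4, 1.67-fold lower. Among cytoplasmic genes the Dishevelled-binding Dact1 read 133.9 and 511.8, 3.82-fold higher, the β-catenin inhibitor Ctnnbip1 was 1.79-fold higher and the kinase Csnk1e 1.79-fold higher. β-catenin itself (Ctnnb1) read 13297 and 14972, a log2 difference of 0.17. Of the planar polarity list, Prickle1 was 1.76-fold and Prickle2 at least 1.71-fold higher, with Invs at 1.29-fold. Of the receptor list only Kremen1 (1.38-fold higher) and Ryk (1.18-fold) were measured, and of the nuclear list Ctbp2 (1.71-fold), Bcl9 (1.63-fold) and Ep300 (1.41-fold) differed most.

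Target genes lay in both directions. Of 10 measured general targets, 2 were 2-fold higher, Sox4 (1181 and 3176, 2.69-fold) and Jun (192.6 and 511.1, 2.65-fold), followed by Tnfrsf19 at 1.47-fold. The proliferation targets Ccnd1 (2746 and 2906) and Myc (1994 and 2170) differed by 0.08 and 0.12 on the log2 scale. Of 9 measured pericentral genes, 3 read higher by 2-fold or more, 0 lower by 2-fold, and 4 were below 0. Over all measured genes, 3.27% were higher and 2.13% lower by this mark. Aldh1a1 and Cldn2 were above the floor in the knockout only, which fixed their direction. The 7 pericentral genes measured on both arrays, with the 4 below 0 among them, had a median of -0.15. Aldh1a1, a retinaldehyde dehydrogenase, read 99.8 and 1586, at least 14.1-fold higher, the claudin Cldn2 53.9 and 1323, at least 11.7-fold, and Slc13a3 398.5 and 843.8, 2.12-fold. Glutamine synthetase (Glul), the classical pericentral target, read 5165 and 6221, a log2 difference of 0.27, and Cyp2e1 stayed under the floor at 74.6 and 74.8.

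**Figure D4:**
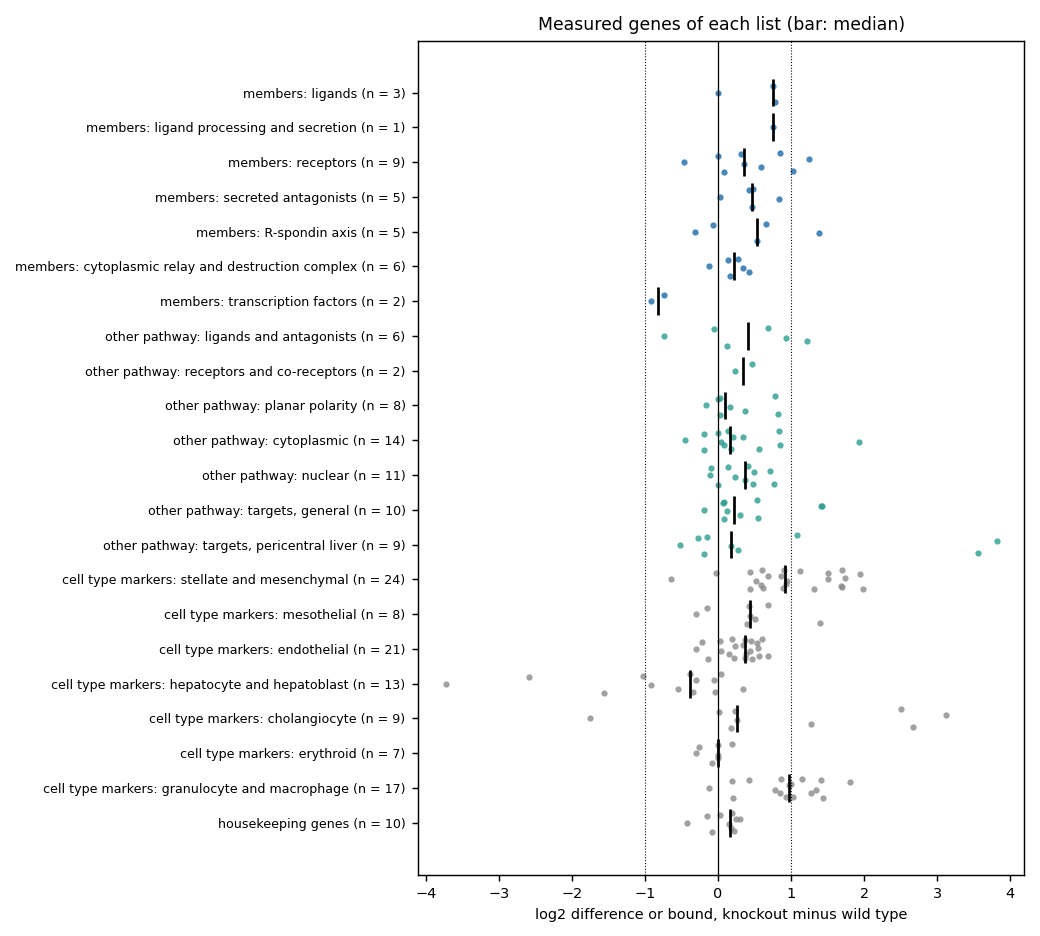
Log2 difference or bound (knockout minus wild type) of the measured genes of each list, with a bar at the median and dotted lines at 2-fold. The transcription factors have the lowest median of the member roles (-0.83), the ligand median rests on bounds for Wnt2 and Wnt11, and the stellate and mesenchymal (0.92) and granulocyte and macrophage (0.97) marker lists lie highest.

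Markers of other cell types also differed between the arrays, and many members are expressed in those cells. In bulk RNA, fewer cells of a type and less RNA per cell cannot be told apart. Of 24 stellate and mesenchymal markers, all measured, 22 were above 0 and 10 of these past 2-fold, the median being 0.92 (0.56 with the median over probe sets for each gene), and their summed signal was 21726 in wild-type and 43155 in knockout liver. Their brightest genes were the matrix genes Reln, Col3a1 and Lum, which read 1.85-fold, 1.88-fold and 2.83-fold higher. Of 21 endothelial markers 18 were above 0, with a median of 0.37 and summed signals of 9554 and 11438; Lyve1, Egfl7 and Stab2 were the brightest, at 0.03, 0.18 and 0.23. Of 8 measured mesothelial markers (of 11; Msln, Lrrn4 and Muc16 were below the floor) 6 were above 0, with a median of 0.43, summed signals of 2471 and 3818, and Alcam, Tcf21 and Upk3b at 0.39, 1.40 and 0.69. The 17 granulocyte and macrophage markers had 16 above 0, a median of 0.97 and summed signals of 44078 and 86496, with S100a8, S100a9 and Mpo at 0.86, 1.41 and 1.02.

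Hepatocyte and hepatoblast markers mostly read lower, cholangiocyte markers mostly higher (many only as bounds), and erythroid markers were level. Of 13 measured hepatocyte and hepatoblast markers 11 were below 0 and 4 at least 2-fold lower, with a median of -0.38 and summed signals of 224658 and 186339, while the brightest, Afp, Ttr and Alb, stood at -0.05, -0.05 and 0.03. Of 9 measured cholangiocyte markers 8 were above 0, 4 of these at least 2-fold higher, and 1 was at least 2-fold lower. Their median was 0.25 and their summed signals 7103 and 10165. Krt18, Krt8 and Tm4sf4 were the brightest, at 0.23, 0.25 and -1.75, and Cftr was below the floor. The 6 others were above the floor in the knockout only, so their direction was fixed, and the median was 1.39 with the floor at the 30th percentile. Named after their values were seen, Krt19 (70.5 and 982.4) was at least 8.72-fold, Cldn7 (47.6 and 714.2) at least 6.34-fold, Cldn6 (17.5 and 638.4) at least 5.67-fold and Epcam (70.3 and 272.7) at least 2.42-fold higher. The remaining bounds were small, at least 1.13-fold for Sox9 (48.5 and 127.4) and 1.01-fold for Krt7 (80.1 and 113.5). Of 7 measured erythroid markers 0 were 2-fold apart, with a median of -0.01 and summed signals of 87687 and 87411 (Slc4a1, Klf1 and Alas2 at 0.19, -0.01 and 0.00). The 10 measured housekeeping genes had a median of 0.16 and 0 past 2-fold. The members' values were not set against these lists in a model, since 2 arrays allow none, and the part of the marker differences in the members' values was not tested. Prox1 itself read 340.3 and 221.8, a log2 difference of -0.62, with its other probe sets at 205.9 and 111.8, and 175.4 and 66.7. Sources used here do not give which part of Prox1 is deleted, so its signal is no check of the deletion.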

How the data were processed

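Liver RNA of 1 wild-type and 1 Prox1 conditional knockout sample was measured on 2 single-colour Affymetrix arrays. The authors deposited 1 intensity per probe set, a MAS5 signal per the submitters' processing notes, and these values were used as deposited because the 2% trimmed mean was 500.0 on both arrays. Its software version and detection calls were not used here. MAS5 subtracts mismatch signal, so dim probe sets scatter. Of 45101 probe sets, 64 controls were left out and 34958 had 1 gene symbol in the platform annotation.

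Signals below a floor at the 50th percentile (112.6) were raised to it before log2, and a gene with 1 array on the floor has only a bound, written "at least". All genes with a single-gene probe set were treated alike, and members were then read out. The number of arrays limits the precision: no SD, p-value or test between genotypes exists, and counts are by size, at a 2-fold mark. Every measured member was named, with up to 3 genes of each other pathway list by absolute difference, Ctnnb1, Ccnd1, Myc, Glul and Cyp2e1, and the 3 brightest genes of each marker list. The members and gene lists were chosen with earlier results of these data known. Alternatives covered the floor, the scaling, the probe set rule and the size mark. Protein sequences were not used here. The counts were made with pandas 2.3.3 and numpy 2.4.6 in Python 3.11.15, with statsmodels 0.14.6 for lowess, and the counting was tested on simulated data. Differences were simulated only in probe sets well above the floor, so the counting of differences near the floor, where many members lie, was not tested.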

Additional observations from a re-analysis of the deposited data

How the results depend on the processing

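No paired analysis was possible because each genotype has 1 array. No member reached 2-fold lower under any floor, scaling or probe set rule tried. The share of all measured genes lower by this mark was itself only 1.78% to 4.45% under these settings. With 22 to 44 members measured, a count of 0 therefore says little about them. The count of members at least 2-fold higher (3 of 31 measured) was 7 of 40 with the floor at the 30th percentile, adding Lrp5, Sfrp2, Wnt2 and Wnt11. The share of all measured genes was then 5.34%. With no floor and no filter (log2 of signal plus 16) it was 9 of 44, against 7.69% of all, adding Rspo1 and Wnt2b to these. With the floor at the 60th percentile it was 2 of 22, without Fzd2, against 2.53% of all. As the median over probe sets, where probe sets on the floor count as 0, it was 0 of 32, against 2.09% of all. Fzd1, Fzd2 and Rspo3 also made up the count under quantile normalization, lowess correction, median centring and, chosen after seeing the data, the probe set with the highest signal on either array. At 1.5-fold the counts were 10 higher and 2 lower, and at 3-fold 0 and 0. The members' median of 0.35 ranged from 0.17 (60th percentile floor) to 0.42. Of 239 values of the 31 measured members under an alternative, 219 moved by less than the robust SD of 0.29 between genes. Part of this is by construction, since a member above every floor has the same value at each floor. A bound also keeps its sign under any floor. At the 60th percentile floor only 22 members were measured, so the rest had no value there. Wherever they had a value, 26 members kept their sign, while Fzd3, Fzd6, Dkk3, Axin1 and Gsk3b did not.

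For other pathway genes the counts of 7 higher and 0 lower became 11 higher at the 30th percentile floor, 13 without a floor, 15 and 1 at 1.5-fold, and 3 higher at 3-fold. For all genes, 373 higher and 243 lower became 789 and 414 at the 30th percentile floor, and 249 and 198 at the 60th. They were 1399 and 810 without a floor, 1125 and 594 at 1.5-fold and 99 and 102 at 3-fold. As the median over probe sets, 239 were higher. The floor and size settings change these counts by construction. Prox1 stayed between -0.70 and -0.58. The median of cholangiocyte markers, 0.25, was 1.39 at the 30th percentile floor and 0.98 without a floor, and that of stellate and mesenchymal markers, 0.92, was 0.56 as the median over probe sets. Signals near the floor limit what can be said of the ligands and feedback genes.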
